A study of Mus musculus with 10 samples.

Results

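Serine, proline, asparagine and one-carbon synthesis was followed through 10 transcripts in mouse heart ventricles after a sham operation. They are Phgdh, Psat1 and Psph of serine synthesis, Shmt2, Mthfd2 and Mthfd1l of the mitochondrial folate pathway, Asns of asparagine synthesis, Aldh18a1 and Pycr1 of proline synthesis, and Atf4, a transcription factor of amino acid stress. The genes were found by symbol, and all 10 were present among the 40690 genes of the count table. All mice were male C57BL/6 animals, 10 weeks old. The sham group of 5 mice had undergone the control surgery for ischemia-reperfusion, and the naive group of 5 had no operation. Polyadenylated RNA of the dissected ventricles was sequenced, 1 library per sample, and the comparison asks what the control surgery itself changed. No source used here gives the time between surgery and tissue collection. The labels name separate samples but not how animals were kept or collected, and p-values cover only the spread among these libraries, which may be technical in part.

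Serine is made from the glycolytic intermediate 3-phosphoglycerate by Phgdh, then Psat1, then Psph. Inside mitochondria Shmt2 moves a carbon from serine to folate, Mthfd2 oxidises the folate-bound carbon, and Mthfd1l releases it as formate, which the cytosol uses for purine and thymidylate synthesis. Proline is made from glutamate by Aldh18a1 and reductases such as Pycr1, and is abundant in collagen. Atf4 is known mainly for control at translation: when the initiation factor eIF2 is phosphorylated its protein rises, and it activates genes of amino acid synthesis and uptake, several of the genes described here among them.

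Libraries held 9683181 to 21537135 counted reads, and 3 counts stood at 0.310 CPM (counts scaled to library size, with TMM factors for the values below) in the shallowest and 0.139 CPM in the deepest library. The edgeR test, at a Benjamini-Hochberg adjusted p under 0.05, called 32.7% of 13622 genes, with 2342 (17.2%) higher after sham surgery and 2113 (15.5%) lower. Among the 10 genes, 8 were higher, 0 were lower and 2 did not pass. Their median log2 fold change was 1.27, against -0.05 for all tested genes. In 7 of the 10 the lowest sham library exceeded the highest naive library, as in 13.6% of all tested genes, and 0 showed the opposite order, seen in 9.18% of them. The 10 genes were chosen with earlier results of these libraries known, so these counts describe the group and are not support for its direction. All 10 passed the filter on low counts. Phgdh, Mthfd1l and Asns passed it only through the sham libraries, since 1, 3 and 4 of the 5 naive libraries reached the level the filter needs, against 5 of 5 sham libraries.

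**Figure D1:**
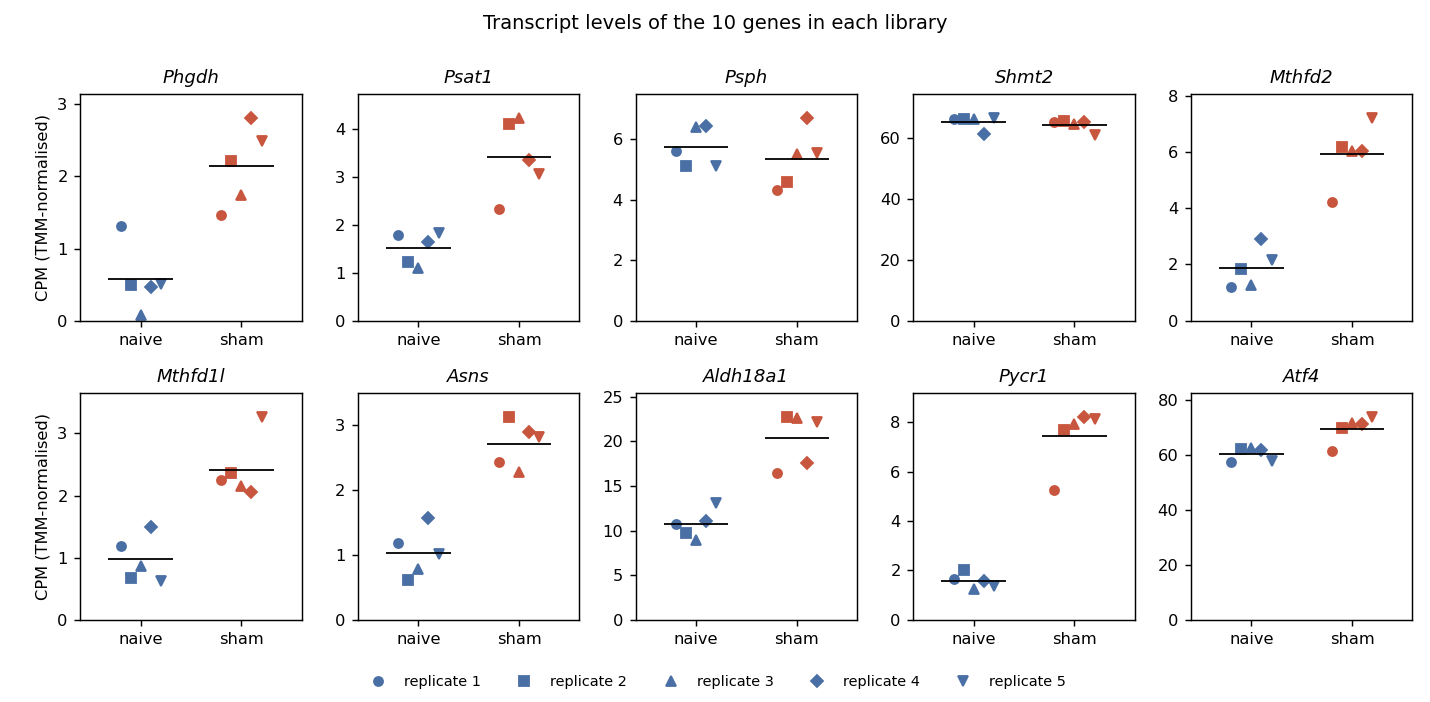
Normalised level in CPM (y axis, from 0) of each of the 10 transcripts in the naive and sham libraries (x axis); each point is a library, the marker shape gives its replicate number and the bar is the group mean. Sham and naive points do not overlap for 7 genes, and do for Psph, Shmt2 and Atf4.

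The serine synthesis enzymes did not change together. Phgdh, which commits 3-phosphoglycerate to serine, and Psat1, the aminotransferase that follows it, rose, while the last enzyme, Psph, did not pass the test. Phgdh (ENSMUSG00000053398, chromosome 3, 98313170 to 98339990, minus strand, GRCm38 build) was at 1.31, 0.492, 0.079, 0.470 and 0.505 CPM in naive 1 to 5. In sham 1 to 5 it was at 1.47, 2.22, 1.74, 2.81 and 2.49 CPM. Every sham library was above every naive library, though sham 1 and naive 1 lay close together and the value of naive 3 rests on 1 count. The log2 fold change was 2.03 ± 0.39 (SE, n = 5 per group, edgeR adjusted p = 8.63e-04), a 4.09-fold rise with a 95% interval of 1.20 to 2.86 on the log2 scale. With limma voom and sample weights the log2 fold change was 2.94, above that interval, and without naive 3 it was 1.75.

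Psat1 (ENSMUSG00000024640, chromosome 19, 15904678 to 15947337, minus strand) was at 1.78, 1.23, 1.11, 1.65 and 1.83 CPM in naive libraries. The sham libraries held 2.34, 4.10, 4.23, 3.35 and 3.06 CPM, all above the naive libraries, with sham 1 again the lowest. It rose by 1.18 ± 0.23 on the log2 scale (edgeR adjusted p = 8.65e-04). Psph (ENSMUSG00000029446, chromosome 5, 129765558 to 129787449, minus strand) removes the phosphate in the last step. It was at 5.59, 5.11, 6.40, 6.43 and 5.11 CPM in naive and 4.33, 4.58, 5.50, 6.69 and 5.54 CPM in sham libraries. The ranges overlapped, and the log2 fold change was -0.09 ± 0.15 (95% interval -0.41 to 0.24, edgeR adjusted p = 0.696). A 1.5-fold rise lies outside that interval. Psph shares 10.4% of its exon bases with Cct6a on the opposite strand, and unstranded reads there cannot be told apart.

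Because the transcripts of the steps differed in their change, their ratio within libraries differed too. Enzyme levels and serine synthesis were not measured. Per kilobase of exon, the ratio of Phgdh to Psph was 0.032 to 0.422 in naive libraries, with a median of 0.177, and 0.559 to 0.851 in sham libraries, with a median of 0.735. The groups did not overlap (exact two-sided permutation p = 0.00794, n = 5 per group, 0.00866 after Benjamini-Hochberg adjustment over 12 ratios). The first p is the smallest that 5 against 5 libraries can give. The numerators of all ratios were genes known to rise here, except Shmt2, so the p-values of the other ratios add no support. The ratio of Phgdh to Sptlc1, a subunit of the enzyme that spends serine on sphingolipids, was 4.33-fold higher in sham (exact permutation, adjusted p = 0.00866), with Sptlc1 itself at 0.06 ± 0.12. A ratio inside a library does not depend on how libraries are scaled, but it carries the numerator's own difference, so it is not a second observation of it.

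In the mitochondrial folate pathway the abundant enzyme Shmt2 did not pass the test, and the scarce enzymes after it rose. Shmt2 (ENSMUSG00000025403, chromosome 10, 127517123 to 127522444, minus strand) was at 66.5, 66.4, 66.3, 61.5 and 66.7 CPM in naive and 65.3, 65.7, 64.8, 65.4 and 61.2 CPM in sham libraries. The ranges overlapped almost fully, with a log2 fold change of -0.02 ± 0.07 (95% interval -0.17 to 0.12, edgeR adjusted p = 0.838). With library size alone as the scaling, which raised the median of all tested genes to 0.22, Shmt2 was at 0.24 (edgeR adjusted p = 0.0242), near that median.

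Mthfd2 (ENSMUSG00000005667, chromosome 6, 83305691 to 83325908, minus strand), the mitochondrial dehydrogenase and cyclohydrolase, was at 1.19, 1.85, 1.26, 2.90 and 2.15 CPM in naive libraries. Sham libraries held 4.24, 6.18, 6.04, 6.03 and 7.21 CPM. The lowest sham library stood above the highest naive library, and the log2 fold change was 1.65 ± 0.23 (edgeR adjusted p = 3.83e-05). Mthfd1l (ENSMUSG00000040675, chromosome 10, 3973118 to 4167081, plus strand), the formate-releasing synthetase, was at 1.19, 0.677, 0.869, 1.49 and 0.631 CPM in naive and 2.25, 2.36, 2.15, 2.05 and 3.26 CPM in sham libraries. The groups did not overlap, sham 5 stood above the other sham libraries, and the gene rose by 1.36 ± 0.27 (edgeR adjusted p = 0.00113).

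The isozymes of these genes were not among those called higher. Mthfd2l, the other mitochondrial dehydrogenase of this type, averaged 5.09 ± 1.25 CPM without surgery and 4.86 ± 0.713 CPM with it (SD, n = 5), a log2 fold change of -0.07 ± 0.18. Per kilobase of exon, Mthfd2 stood at 0.374 to 1.39 times Mthfd2l in naive libraries and at 1.80 to 3.27 times in sham libraries. Per kilobase, Mthfd2 was thus the lower of the pair in 3 of 5 naive libraries and the higher in all 5 sham libraries. That order depends on the merged exon lengths. By counts the log2 ratio was -2.35 to -0.458 in naive and -0.085 to 0.778 in sham libraries. The shift of the ratio was 3.36-fold (exact permutation, n = 5, adjusted p = 0.00866), and this test does not address which gene was higher. Mthfd1, the cytosolic enzyme that covers the same reactions, was at -0.12 ± 0.09, and the ratio of Mthfd1l to it was 2.72-fold higher in sham (adjusted p = 0.00866, exact permutation). Even so, Mthfd1l stayed far below Mthfd1 per kilobase, at 0.0765 to 0.117 times in sham libraries.

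Shmt1, the cytosolic serine hydroxymethyltransferase, fell from 9.68 ± 1.55 to 6.83 ± 1.11 CPM (SD, n = 5, log2 fold change -0.51 ± 0.15, edgeR adjusted p = 0.0130), and did not pass without sham 2 (edgeR adjusted p = 0.0526). Shmt1 did not pass with library size alone either (edgeR adjusted p = 0.24). The ratio of Shmt2 to Shmt1 was 1.40-fold higher in sham, with groups that overlapped (exact permutation p = 0.0159, adjusted p = 0.0159).

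**Figure D2:**
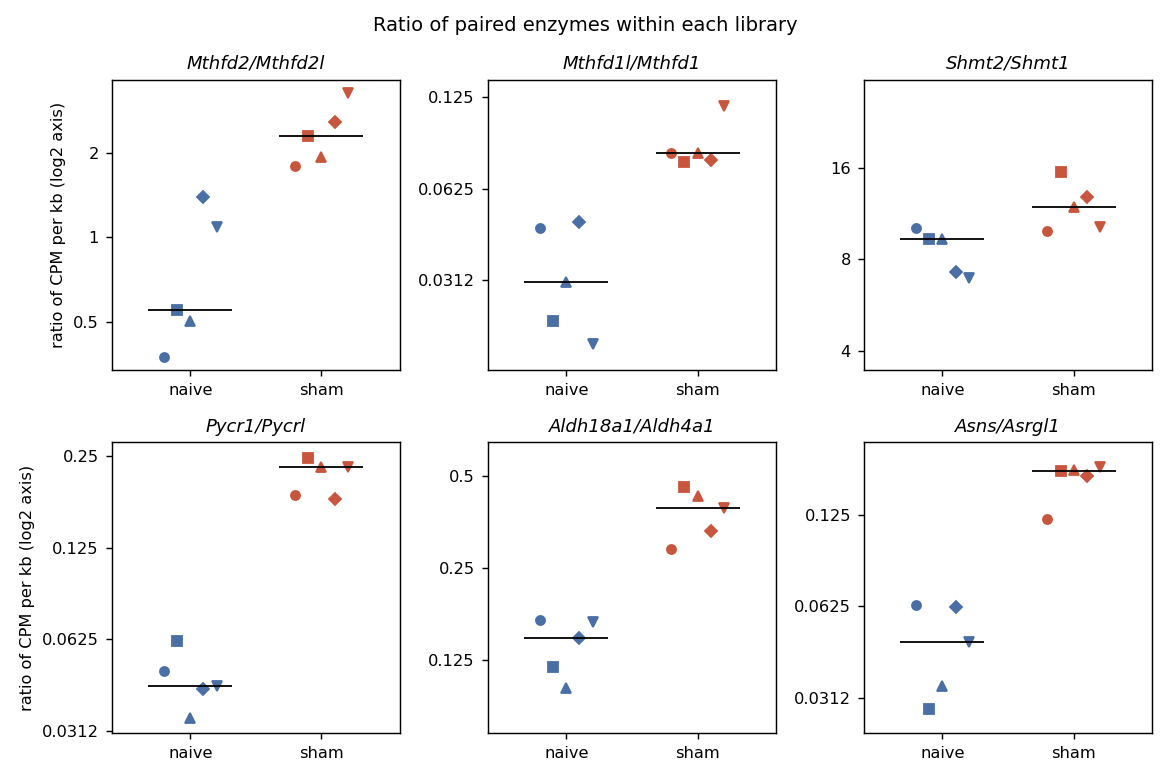
Ratio of the levels per kilobase of exon of 6 enzyme pairs within each library (y axis, log2-scaled, its range set by panel); each point is a naive or sham library (x axis), marker shapes give replicate numbers and the bar is the group median. The groups overlap only for Shmt2/Shmt1, and Mthfd2/Mthfd2l goes from a median of 0.551 to 2.29.

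Asparagine synthetase (Asns, ENSMUSG00000029752, chromosome 6, 7675169 to 7693254, minus strand) makes asparagine from aspartate and glutamine. It was at 1.19, 0.615, 0.790, 1.57 and 1.01 CPM in naive libraries. Sham libraries held 2.43, 3.12, 2.28, 2.90 and 2.81 CPM, all above the naive libraries. The log2 fold change was 1.41 ± 0.25 (edgeR adjusted p = 4.20e-04), with 10 to 20 counts per naive library behind it. Asrgl1, which breaks asparagine down, fell by 0.43 ± 0.11 on the log2 scale (edgeR adjusted p = 0.00848). With library size alone as the scaling, Asrgl1 did not pass (edgeR adjusted p = 0.305). The ratio of Asns to Asrgl1 was 3.60-fold higher in sham without overlap (exact permutation, n = 5, adjusted p = 0.00866). Per kilobase Asns remained the lower of the pair, at 0.121 to 0.180 times Asrgl1 in sham libraries.

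Both genes of proline synthesis rose. Pycr1 (ENSMUSG00000025140, chromosome 11, 120635712 to 120643769, minus strand), a mitochondrial reductase of the last step, was at 1.67, 2.03, 1.26, 1.57 and 1.39 CPM in naive libraries. Sham libraries held 5.28, 7.71, 7.92, 8.21 and 8.15 CPM. The lowest of them, sham 1, was more than 2 times the highest naive library. The log2 fold change was 2.23 ± 0.18 (edgeR adjusted p = 1.75e-07), a 4.70-fold rise. Aldh18a1 (ENSMUSG00000025007, chromosome 19, 40550257 to 40588463, minus strand), which starts proline synthesis from glutamate, was at 10.7, 9.78, 8.93, 11.1 and 13.1 CPM in naive and 16.5, 22.7, 22.6, 17.6 and 22.2 CPM in sham libraries. These groups did not overlap either, with sham 1 and sham 4 lowest, and Aldh18a1 rose by 0.92 ± 0.13 (edgeR adjusted p = 5.33e-05).

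Pycrl, a cytosolic relative of Pycr1, did not pass the test, with means of 11.9 ± 0.827 CPM without surgery and 11.9 ± 2.19 CPM with it (SD, n = 5, log2 fold change 0.01 ± 0.13). Per kilobase Pycr1 went from a median of 0.0441 to 0.230 times Pycrl, with no overlap of groups (exact permutation, n = 5, adjusted p = 0.00866). Pycr1 remained the lower of the pair in every library. The enzymes that break proline down were lower. Aldh4a1 fell from 94.1 ± 11.3 to 64.9 ± 3.87 CPM (-0.54 ± 0.09, edgeR adjusted p = 3.03e-04), with 32.5% of its exon bases shared with Gm21969. Prodh fell by 0.36 ± 0.12 (edgeR adjusted p = 0.0295), a call that was lost without naive 1, naive 3 or sham 2, 3, 4 or 5 (edgeR adjusted p of 0.0522 to 0.0919). That call was also lost with library size alone, while Aldh4a1 still passed. The transcript ratio was 2.73-fold higher for Aldh18a1 against Aldh4a1 and 6.01-fold higher for Pycr1 against Prodh (exact permutation, n = 5, adjusted p = 0.00866 for each). Both numerators were known to rise here, so these p-values add no support, and proline synthesis and breakdown were not measured.

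**Figure D3:**
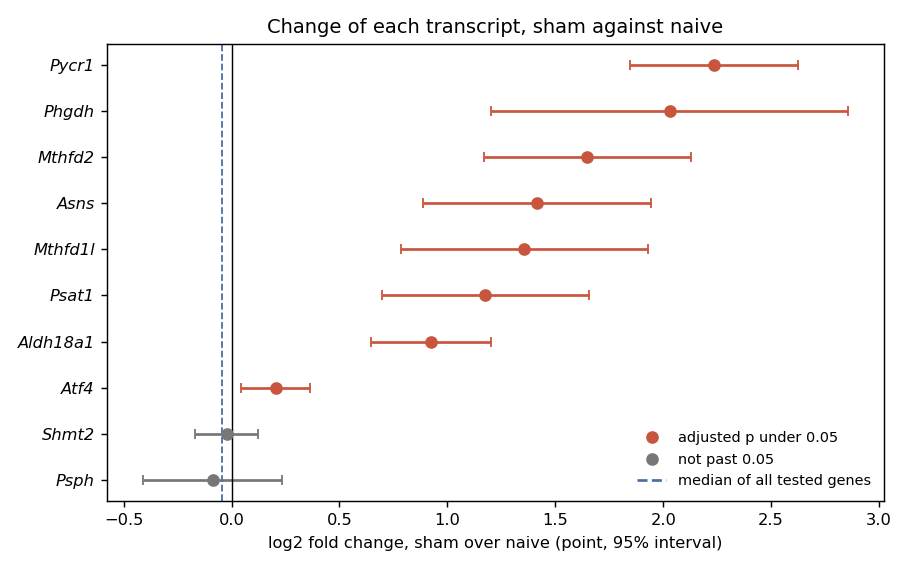
Log2 fold change of each of the 10 transcripts, sham over naive (x axis; points with 95% intervals from the edgeR fit over 5 and 5 libraries), in order of size; the dashed line is the median of all tested genes, at -0.05. Pycr1 and Phgdh stand at 2.23 and 2.03, and the intervals of Shmt2 and Psph include 0.

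Genes of amino acid synthesis are known to be switched on through sites that ATF4 binds with C/EBP partners, so the promoters of the group were searched for the core letters TGATGNAA on either strand. The windows ran from 250 bases before to 50 after each RefSeq start on GRCm38.p6, and all 10 genes had at least 1 window. A match was found for Asns and Pycr1 and for none of the other 8. Of 32851 windows of this length, 3.97% held a match, as did 4.51% of 27025 genes in any of their windows. The matches are shown with the bases around them, 30 in all, because these 2 genes rose. Beside them stand Nupr1 and Slc1a4, which rose too, Chac1, which did not pass the test with all libraries (0.45 ± 0.23) but passed as higher without naive 1 (edgeR adjusted p = 0.00157), and Herpud1, which fell. These 4 were picked for their values, as examples. Each is read 5′ to 3′ on the strand of the match, with the 8 matched letters in capitals.
Asns: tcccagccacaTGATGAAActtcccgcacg
Pycr1: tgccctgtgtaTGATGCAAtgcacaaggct
Nupr1: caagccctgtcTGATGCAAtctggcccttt
Slc1a4: caggctggagaTGATGCAAcgcaggaggca
Chac1: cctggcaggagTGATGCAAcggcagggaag
Herpud1: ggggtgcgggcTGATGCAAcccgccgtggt

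The Asns letters lie on the minus strand at chr6:7693225-7693232, starting at position -23 from the RefSeq start and inside the GENCODE gene. Those of Pycr1 lie on the minus strand at chr11:120643844-120643851, starting at -103. The stretch of the Pycr1 promoter at chr11:120643770-120643998, 229 bases on the minus strand before both annotated starts, is shown because this gene rose in every alternative and holds a match, again in capitals.
Pycr1 promoter: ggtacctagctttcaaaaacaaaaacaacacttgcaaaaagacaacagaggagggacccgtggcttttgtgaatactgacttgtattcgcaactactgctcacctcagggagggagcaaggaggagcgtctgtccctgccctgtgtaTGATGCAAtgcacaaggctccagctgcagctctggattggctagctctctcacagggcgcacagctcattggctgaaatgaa
Among the other pathway genes with a promoter window, 16 of 94 held a match. Of these 16, 3 rose (Nupr1, Slc1a4 and Tars), 3 fell (Vldlr, Herpud1 and Got1), 8 did not pass and 2 were not tested. Of the 78 without a match, 13 rose, 13 fell, 45 did not pass and 7 had no test under the symbol of their promoter. Among those 7 was Mars1, which was tested under the symbol Mars and did not pass. Of the 8 synthesis genes without a match 6 rose, beside both genes with one. A match is a description of letters, and no binding was measured here.

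Atf4 itself moved little. Atf4 (ENSMUSG00000042406, chromosome 15, 80255184 to 80257541, plus strand) was at 57.5, 62.4, 62.6, 62.1 and 58.0 CPM in naive and 61.5, 70.0, 71.7, 71.3 and 73.9 CPM in sham libraries. The groups overlapped through sham 1 alone; sham 2 to 5 stood above every naive library. The log2 fold change was 0.20 ± 0.08, a 1.15-fold rise (95% interval 0.04 to 0.37 on the log2 scale), and its edgeR adjusted p of 0.0499 was just under the threshold. The call was lost when any of the 5 naive libraries or sham 2, 3 or 5 was left out (edgeR adjusted p of 0.0694 to 0.106) and with no filter (edgeR adjusted p = 0.133). It passed in 9 of 19 alternatives. The ratios of Asns and Mthfd2 to Atf4 were 2.31-fold and 2.83-fold higher in sham, with no overlap (exact permutation, n = 5, adjusted p = 0.00866 for each). Transcript counts say nothing of Atf4 protein.

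As CPM per kilobase of exon, Atf4 and Shmt2 stood far above the other 8 transcripts in both groups. In naive libraries Atf4 was at 25.7 ± 1.08 CPM per kilobase (SD, n = 5), Shmt2 at 21.1 ± 0.724, Aldh18a1 at 2.63 ± 0.389 and Psph at 1.32 ± 0.152, each separate from the next in range. Mthfd2, Pycr1, Asns, Psat1, Phgdh and Mthfd1l followed from 0.536 ± 0.201 down to 0.219 ± 0.082, and each overlapped its neighbour. In sham libraries Pycr1 at 1.89 ± 0.313 and Mthfd2 at 1.70 ± 0.307 stood before Psph at 1.23 ± 0.216 in the order of means, but each overlapped its neighbour in range. Aldh18a1 at 5.00 ± 0.737 stood next after Shmt2 and apart from Pycr1.

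Sham 1 was the lowest sham library for 7 of the 10 genes, among them Psph, which was not called higher. Over the 2342 genes called higher, sham 1 was the lowest sham library in 44.5% and sham 4 in 22.5%. Without sham 1 the median log2 fold change of the 10 genes was 1.32, and 8 were called higher. Sham 4, the deepest library, had counts in 24214 genes, against 20842 to 22570 in the other sham libraries. Chi-square per degree of freedom between the counts of library pairs, which also grows with depth, was 72.7 to 95.4 with sham 4. Among the other sham libraries it was 10.1 to 22.3. Without sham 4 the median of the 10 genes was 1.32, and 8 were called higher.

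Of 112 other tested genes in 10 related lists, 20 (17.9%) were higher and 17 (15.2%) lower, close to the 17.2% and 15.5% of all tested genes, with a median log2 fold change of -0.01. With library size alone, 48 were higher and 2 lower. The 2 lower genes were Aldh4a1 and Vldlr, so every other fall named in these lists was lost under that scaling.

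Amino acid transporters held the most increases, with 7 of 13 higher, 2 lower and 4 not past (median 0.38). Slc1a5, a carrier of glutamine and other neutral amino acids, was at 29.5 to 36.6 CPM in naive and 54.0 to 57.0 CPM in sham libraries, a log2 fold change of 0.76 ± 0.08 (edgeR adjusted p = 2.37e-06). Its relative Slc1a4, which carries serine and alanine, rose by 1.41 ± 0.20, and Slc7a5, the light chain of the leucine carrier, by 0.94 ± 0.14, with its heavy chain Slc3a2 at 0.38 ± 0.09. For these 4 carriers no sham library overlapped a naive library. The lower ones were Slc38a3 (-0.54 ± 0.11), a glutamine carrier, and Slc38a2 (-0.30 ± 0.10), whose call was lost without naive 2 or 5 or sham 1, 2, 4 or 5 (edgeR adjusted p of 0.0535 to 0.0812).

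Of 17 folate and one-carbon partners 5 were higher, 2 were lower and 10 did not pass (median 0.14). Sfxn1, a carrier of serine into mitochondria, rose from 5.74 ± 0.803 to 9.12 ± 0.739 CPM (SD, n = 5, edgeR adjusted p = 9.34e-04). Thymidylate synthase (Tyms), which uses a folate-bound carbon for DNA synthesis, rose by 1.22 ± 0.27, and the mitochondrial formyl-folate dehydrogenase Aldh1l2 by 0.59 ± 0.14. Fpgs and Ggh, which add and remove the glutamate tail of folates, rose by 0.34 ± 0.10 and 0.68 ± 0.20; Ggh did not pass without sham 3 (edgeR adjusted p = 0.0541). Methionine synthase (Mtr) fell by 0.40 ± 0.11, and of the 4 tested genes of the methionine cycle none passed (Mat2a at -0.05 ± 0.07). Beside that count of 0, the unadjusted p was under 0.05 for 0 of the 4, and DESeq2 called 0. The lower count of the folate list was 1 without sham 2.

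Glycine cleavage, which also feeds folate, had 1 of 4 members lower (Gcsh at -0.38 ± 0.09) and 0 higher. Gldc was at 1.23 ± 0.57 (edgeR adjusted p = 0.113) and passed as higher without naive 1 or with no filter, and without naive 1 the lower members were 2. Serine and asparagine use had 1 of 9 higher (Sptlc2 of sphingolipid synthesis, at 0.56 ± 0.13) and 1 lower, Asrgl1. Those counts were 2 higher without naive 1 or sham 3, and 2 lower without naive 2. Aspg, of the same list, was too low to be tested with all libraries. It averaged 0.348 ± 0.255 CPM in naive and 0.925 ± 0.509 CPM in sham libraries (SD, n = 5), with ranges that overlapped. Of 11 proline, ornithine and glutamate partners 0 were higher and 5 lower (median -0.26), namely Aldh4a1, Prodh, the aspartate aminotransferases Got2 (-0.51 ± 0.09) and Got1 (-0.30 ± 0.10), and glutamine synthetase Glul (-0.45 ± 0.12). The lower members were 3 without sham 2, 3 or 5, since Got1 and Prodh then did not pass, and Got1 did not pass without naive 4 or 5 either. With library size alone 1 was lower and 2 higher. Purine synthesis, which takes up formate, had 2 of 12 higher (Impdh1 at 0.40 ± 0.07, Adss at 0.69 ± 0.13) and 3 lower (Adssl1, Gmps and Adsl). All 3 lower calls were lost with library size alone, and that of Adsl also with no filter.

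Of 15 other known targets of ATF4, 3 were higher, 2 were lower and 10 did not pass (median 0.13). The stress protein Nupr1 rose from 5.89 ± 0.826 to 17.6 ± 3.77 CPM (SD, n = 5, log2 fold change 1.58 ± 0.16, edgeR adjusted p = 1.23e-06), Sesn2 by 0.58 ± 0.13 and Cebpg by 0.41 ± 0.11. Among those that did not pass, Ddit3 was at -0.03 ± 0.12, Trib3 at 0.11 ± 0.17, Atf3 at -0.22 ± 0.23 and Chac1 at 0.45 ± 0.23. The number higher was 5 without naive 1. The 2 that passed then were Chac1 and Gdf15 (0.46 ± 0.23 with all libraries). Cebpb did not pass with all libraries but passed as higher in 6 of 19 alternatives, without sham 4 among them (edgeR adjusted p = 0.0323). The lipoprotein receptor Vldlr fell by 0.76 ± 0.13 and Herpud1 by 0.45 ± 0.11.

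Of 20 cytosolic aminoacyl-tRNA synthetases, many of them also known as ATF4 targets, 1 was higher and 0 lower (median 0.00). Tars rose by 0.28 ± 0.09 (edgeR adjusted p = 0.0216), and the number was 0 to 2 with single libraries left out, 0 without naive 2 or naive 3. Cars did not pass in the main fit but passed as higher in 11 of 19 alternatives, DESeq2, limma voom and the replicate block among them. With library size alone 11 were higher. Among the kinases and phosphatases of eIF2, Eif2ak2, the kinase that senses double-stranded RNA, rose by 1.04 ± 0.21 (edgeR adjusted p = 0.00120). Eif2ak3, Eif2ak4 and Eif2ak1, which sense unfolded protein, amino acid shortage and heme shortage, were at 0.24 ± 0.13, 0.12 ± 0.13 and -0.12 ± 0.08, and Eif2ak3 passed as higher without sham 4 (edgeR adjusted p = 0.0397). Ppp1r15a was lower by 0.27 ± 0.10 at an edgeR adjusted p of 0.0490, a call lost in 12 of 19 alternatives, leaving out naive 1, 2 or 3 or sham 1, 3, 4 or 5 among them.

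**Figure D4:**
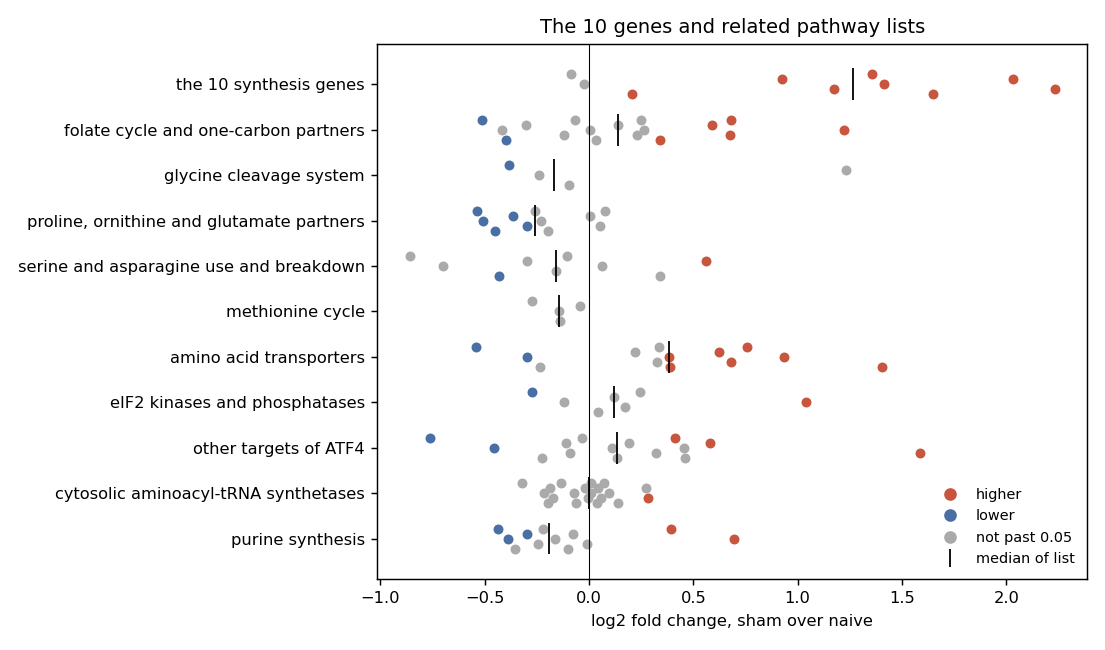
Log2 fold change, sham over naive (x axis), of every tested gene in the group and in 10 related lists (y axis); points are genes, coloured by call at an adjusted p of 0.05, and the black bar is the median of each list. The medians of the related lists lie between -0.26 and 0.38, against 1.27 for the 10 synthesis genes.

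The samples are whole ventricle, so more cells of a type and more RNA per cell cannot be told apart, and markers of several cell types moved with these genes. Dividing-cell markers rose in 6 of 6 tested cases (8 listed), and their summed level was 5.23 to 10.4 CPM in naive and 28.0 to 53.0 in sham libraries. All 9 markers of macrophages and monocytes rose, and their summed level was 323 to 398 CPM in naive and 1002 to 1292 CPM in sham libraries. Fibroblast markers rose in 5 of 8 cases, with summed levels of 1899 to 2245 and 2103 to 2483 CPM that overlapped. Cardiomyocyte markers fell in 6 of 8 cases, and endothelial markers in 3 of 8 with 0 higher. Smooth muscle and pericyte markers had 1 of 7 higher and 1 lower. In the list named skeletal muscle 0 of 6 were higher and 2, Ckm and Actn3, were lower. This list summed to 2931 to 3822 CPM in naive ventricles, so its fall was not read as a change of skeletal muscle cells. Of 8 lymphocyte markers 1 was tested and rose, with summed levels of 1.11 to 2.40 and 3.05 to 4.24 CPM. The 6 adipocyte markers were too low to be tested, and no marker of any list was at 0 counts in all libraries. Sham 1 had the lowest summed level of dividing-cell markers among the sham libraries, at 28.0 CPM, and of macrophage markers, at 1002 CPM. The part of these cells in the rise of the synthesis genes was not tested.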

How the data were processed

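The authors deposited whole-number counts for each Ensembl gene and library, which the name of their table calls unprocessed HTSeq data on GRCm38. Libraries were single-end and unstranded, per the labels' protocols. TopHat2 2.1.1, Bowtie2, HTSeq, DESeq and edgeR are named without roles in the submitters' processing notes; no source used here gives the annotation release or counting mode. Of 41264 rows, 574 repeated an identifier with identical counts and were collapsed.

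Genes kept by filterByExpr (minimum count 10, minimum total 15) were scaled with TMM factors and tested with edgeR 4.0.16's quasi-likelihood F test (robust, group alone, R 4.3.3), adjusted over all tested genes. Standard errors are log2 fold changes divided by the root of F, as absolute values. Ratios used log2 counts plus 0.5. Of the 12 ratios tested, 1 is not reported here. Coordinates and merged exon lengths are those of GENCODE M21 on GRCm38, promoters those of RefSeq on GRCm38.p6. The members and lists were chosen with earlier results of these data known. Named genes were the members, ratio partners, up to 4 genes of smallest p per list and lists' called genes when 5 or fewer. Ddit3, Trib3, Atf3, Chac1, Gdf15, Cebpb, Slc3a2, Eif2ak1, Eif2ak4, Gars, Qars, Atic and Aspg were named after their values were seen.

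On simulated counts for sham against naive (13494 genes), 56.1% of 66 changes of 1.5-fold, 82.8% of 64 of 2-fold and 95.2% of 62 of 4-fold were recovered, with 13 of 162 calls false. The simulation changed few genes, in random directions, whereas 32.7% of tested genes were called here. These rates need not hold for the real libraries. Alternatives were DESeq2 1.42.0, RLE factors, library size alone, other filters, limma 3.58.1 voom with sample weights, no robust estimation, the replicate block, each library left out, and naive 1 and sham 4 left out together.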

Additional observations from a re-analysis of the deposited data

Results flagged for a closer look

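Each value here was far from the other 4 libraries of its group, in that its gap to the nearest of them took more than 0.71 of the group's range; 44 groups of 5 were checked, and chance flags about 1 in 20. Shmt2 was at 61.5 CPM in naive 4, a gap of 0.915 of the range, and at 61.2 CPM in sham 5 (0.795). Both gaps are under 10% of the level. Mthfd1l was at 3.26 CPM in sham 5 (0.745), and its log2 count ratio to Mthfd1 there was -3.09 (0.844). Pycr1 was at 5.28 CPM in sham 1 (0.827). In sham 1 the log2 count ratios of Pycr1 to Prodh, at -3.11 (0.811), and of Asns to Asrgl1, at -3.70 (0.806), were also apart from the other sham libraries.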

How the results depend on the processing

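Phgdh, Psat1, Mthfd2, Mthfd1l, Asns, Aldh18a1 and Pycr1 stayed higher and past the threshold in all 19 alternatives run, with the highest adjusted p at 0.00521. With single libraries left out, 7 to 8 of the 10 genes were higher and 0 lower, 2132 to 2461 of all genes were higher and 1465 to 2249 lower, and 18 to 26 of the other pathway genes were higher and 13 to 18 lower. All 12 ratios passed in each such fit. With library size alone 4473 genes were higher and 283 lower, 94.0% of calls higher against 52.6%, and 48 pathway genes were higher and 2 lower. Under that scaling Shmt2 (0.24), Mat2a (0.22), Gars (0.25), Qars (0.26) and Atic (0.26) turned from negative to higher. With limma voom 3243 genes were lower. The labels do not say that replicate numbers pair libraries, and they were not taken as pairs, since same-numbered libraries had correlations of 0.008 to 0.293 in their deviations from group means, with 3 of 5 over 0.1. That 6 of 10 libraries correlated best with their own number is a hint of pairing from the data, not the design. With the replicate block 2592 genes were higher and 2801 lower, 8 of the 10 genes were higher, and 0 of the 12 ratios passed, since 5 pairs cannot give an exact p below 0.0625. Depth limits the least abundant genes: naive libraries held 1 to 11 counts of Phgdh, 10 to 19 of Mthfd1l and 10 to 20 of Asns. These genes passed the low-count filter of the main fit only through the sham libraries. All alternatives refit the same libraries, so they add no support for the direction of any of the 10 genes.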
